A study of Mus musculus with 5 samples.

Results

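A set of 8 genes for the trafficking of T cells was followed across regulatory T (Treg) cells with wild-type, deleted and protease-dead Malt1. They are S1pr1, Klf2, Cd44 and the integrin chains Itga4, Itgb1, Itgb7, Itgal and Itgb2, and they were taken from a list of symbols for these roles, with no threshold on a measured value. These genes and the gene lists used below were chosen with earlier results of these data known, so their counts are not free of selection. All 8 were found, each as 1 entry among the 38130 of the deposited files, and all 8 passed the filter on low values that 11296 genes passed. L-selectin was not analysed here.

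The study sequenced total RNA of CD4+YFP+ Treg cells sorted from C57BL/6 mice in which Foxp3, the transcription factor of Treg cells, drives both Cre and a yellow fluorescent protein. All 5 libraries carry this Foxp3-Cre-YFP reporter. Wild-type mice (WT) gave 1 library at 21 days (written WT-21d) and 1 at 6 weeks (WT-6w). Mice with both Malt1 alleles floxed, Malt1fl/fl, gave 1 library at 21 days, in which Malt1 is deleted in Treg cells according to the labels (KO). Mice at 6 weeks with 1 floxed allele and 1 allele carrying the C472A substitution, Malt1fl/C472A, gave 2 libraries, described as Treg cells in which the protease is inhibited (KI). WT-6w is thus the control matched to KI in age, and WT-21d the control matched to KO. KI against WT-21d and KO against WT-6w differ in age as well as in genotype, and age and genotype cannot be told apart there. Malt1 encodes a paracaspase that relays antigen receptor signals to NF-kB and cleaves substrate proteins. The C472A allele is not described as limited to Treg cells, and KI Treg cells keep only the mutated copy after Cre excision, so gene dose differs from WT along with the protease. The labels do not say how many animals gave a library or whether the KI libraries came from separate animals, so the spread between them may be technical.

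Lymphocytes leave blood, cross tissues and return to it by a sequence of adhesion and guidance steps. Integrins are dimers of an alpha and a beta chain that hold the cell to vessel walls once chemokine signals have switched them to a high-affinity form. The alpha4 chain (Itga4) pairs with beta1 (Itgb1) as VLA-4, which binds VCAM-1 and fibronectin, or with beta7 (Itgb7) as the gut homing receptor for MAdCAM-1. The alphaL chain (Itgal) pairs with beta2 (Itgb2) as LFA-1, which binds ICAM-1. Exit from lymph nodes depends on S1pr1, the receptor for sphingosine 1-phosphate, whose transcription is driven by KLF2, while CD44 binds hyaluronan and is a marker of effector and memory T cells.

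Itga4 and Itgb1 had the widest log2 ranges of the 8 genes over the libraries (2.77 and 1.25). Their promoters are shown, with that of Itgb7, the other partner of alpha4, which varied little. Each stretch is the 250 bases before the annotated start on the gene's own strand, from RefSeq on GRCm38.p6, with the KLF motif CACCC or its reverse complement GGGTG in capitals. RefSeq promoters were matched for 5 of the 8 genes.

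Itga4 (chr2:79255176-79255425, plus strand): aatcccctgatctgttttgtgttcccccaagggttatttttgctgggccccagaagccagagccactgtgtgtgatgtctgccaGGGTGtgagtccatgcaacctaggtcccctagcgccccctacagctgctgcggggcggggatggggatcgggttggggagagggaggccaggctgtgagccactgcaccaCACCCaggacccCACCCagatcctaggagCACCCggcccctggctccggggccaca

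Itgb1 (chr8:128685404-128685653, plus strand): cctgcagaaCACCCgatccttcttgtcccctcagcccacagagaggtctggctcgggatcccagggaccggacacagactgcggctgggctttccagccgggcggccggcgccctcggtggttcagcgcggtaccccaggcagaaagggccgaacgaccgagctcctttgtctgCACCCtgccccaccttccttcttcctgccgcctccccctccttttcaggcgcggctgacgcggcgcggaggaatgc

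Itgb7 (chr15:102231936-102232185, minus strand): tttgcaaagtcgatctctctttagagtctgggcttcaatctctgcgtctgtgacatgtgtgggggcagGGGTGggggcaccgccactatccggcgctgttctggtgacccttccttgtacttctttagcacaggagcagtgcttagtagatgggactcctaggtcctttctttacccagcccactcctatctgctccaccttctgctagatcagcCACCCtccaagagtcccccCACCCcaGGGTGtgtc

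The motif was present 4 times in the Itga4 stretch, 2 times in that of Itgb1 and 4 times in that of Itgb7. It was present 1 time in the corresponding stretch of Klf2 itself and was not in that of Cd44. Of 32851 promoter stretches of this length, 52.0% held the motif on at least 1 strand, so its presence is common. The Sp1 motif GGGCGG, or its reverse complement CCGCCC, was present 1 time in Itga4, 1 time in Itgb1, 2 times in Klf2 and in 32.7% of all stretches. The FOXO motif GTAAACA and the ETS motif CCGGAAGT, each also sought as its reverse complement, were in none of the 5 stretches and in 3.17% and 2.88% of all. No match to one motif overlapped a match to another in the 5 stretches. A match describes letters in this window and not a bound site.

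Levels are given as scaled FPKM, fragment counts normalised to transcript length and to the library's mapped fragments, then divided by a factor for each library. On this scale levels of different genes can be compared per length. The lower and upper bounds that accompany each value lie 2 standard errors away and cover counting and assignment within a library only. Estimated depth was 24.5 to 28.1 M fragments in WT-21d and both KI libraries, against 6.88 M in WT-6w and 7.79 M in KO. The bounds of the 8 genes lay between 2.05% and 8.16% away from the value. Malt1 itself had 27.0 scaled FPKM in WT-21d, 15.2 in WT-6w, 17.6 in KO and 55.9 and 37.8 in KI, so the library labelled KO lay between the WT libraries and this gene total gives no check of the deletion. The Treg markers Foxp3, Il2ra, Ikzf2, Ctla4, Tnfrsf18 and Lrrc32 were above 0 in every library, with a summed level of 383 in KO, 423 in WT-6w and 784 to 895 in the other libraries, and the T cell markers Cd3e, Cd3d, Cd3g, Cd4, Trbc2 and Lck summed to 1137 to 2049. In bulk RNA, fewer cells with a transcript and less transcript per cell cannot be told apart.

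All 8 genes were abundant in Treg cells. Over the libraries, 6 of them (S1pr1, Klf2, Itgb1, Itgb7, Itgal and Itgb2) stayed above the 91st percentile of tested genes, and Cd44 lay between the 76.6th and 87.5th. Itga4 moved most, from the 55.6th percentile in KO to the 94.8th in KI replicate 2. KO was the lowest library for 4 of the 8 genes and the highest for 0, and WT-21d was the highest for 4. When the 5 libraries were put in order for each gene, the bounds of neighbours overlapped in 9 of 32 pairs. No share over all tested genes was computed for these counts, so they cannot be read as particular to the 8 genes.

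**Figure D1:**
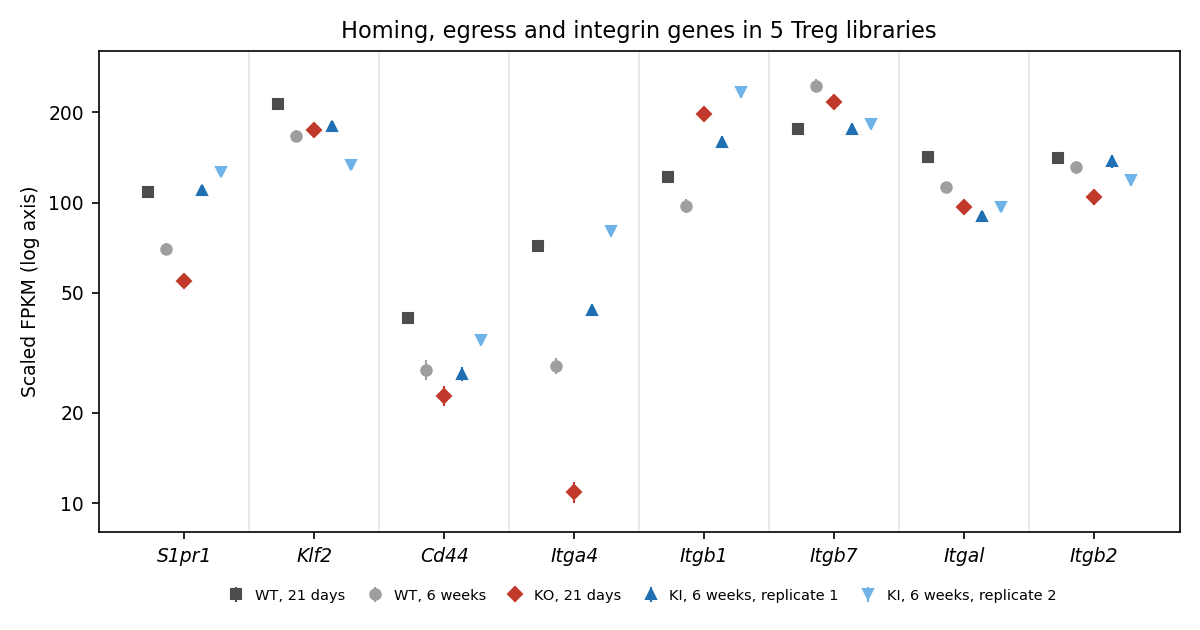
Scaled FPKM (log axis) of the 8 genes in each of the 5 libraries, with vertical lines for the deposited lower and upper bounds divided by the same factor. Itga4 spans from 10.9 in KO to 80.3 in KI replicate 2, whereas Itgb2 and Itgb7 stay within a narrow band.

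Itga4, the alpha4 chain (ENSMUSG00000027009, chromosome 2, 79255426 to 79333123, GRCm38), had 71.9 scaled FPKM in WT-21d and 28.6 in WT-6w. In KO it was 10.9 (bounds 9.998 and 11.8). The 2 KI libraries gave 43.97 and 80.3, a mean of 62.1 ± 25.7 (SD, n = 2). KO was the lowest of all 5, below either WT library with no overlap of bounds, and the WT and KI ranges overlapped. The log2 difference of KO was -2.62 from WT-21d, a 6.61-fold lower level, and -1.32 from WT-6w, a 2.63-fold lower level. Itga4 was the only 1 of the 8 genes past 2-fold lower in KO against WT-21d, where 8.14% of all tested genes were lower and 6.13% higher. It was also the only 1 past 2-fold lower against WT-6w, beside 2.29%, and the only 1 past 2-fold lower against both WT libraries, where 0.938% were. Each side of these differences is 1 library, so they have no replicate check. The WT libraries themselves differed by -1.30, with WT-6w lower, and again Itga4 alone of the 8 was past 2-fold lower, beside 5.18% of tested genes. There 0 of the 8 were past 2-fold higher, beside 3.38%.

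The KI libraries lay on opposite sides of WT-21d for Itga4, at -0.70 and 0.16, and above WT-6w by 0.60 and 1.46. The mean difference from WT-6w was 1.03 (limma, SE 0.453, adjusted p = 0.505), of the same order as the 0.85 between the KI libraries. Against WT-21d, which also differs from KI in age, the mean was -0.27, so the direction in KI depends on which WT library is the control. Itga4 has a long transcript, up to 9767 nt, and among the 1973 tested protein-coding genes in the longest of 5 groups by transcript length (5177 nt and above) the median difference was -0.40 for KO against WT-21d and -0.32 between the WT libraries. In the same group it was -0.09 for KO against WT-6w and 0.37 for KI against WT-6w. Cd44 and Itgal are in this longest group too. The part of transcript length in the values of Itga4, Cd44 and Itgal was not tested. On the opposite strand Cerkl shares 1124 exonic bases with Itga4, 8.04% of its total. Cerkl had 0.448 to 2.19 scaled FPKM, low beside Itga4 in every library.

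Itgb1, the beta1 chain (ENSMUSG00000025809, chromosome 8, 128685654 to 128733200), went the other way. It had 122 scaled FPKM in WT-21d and 97.6 in WT-6w, 197 in KO, and 159 and 233 in KI, or 196 ± 52.4 (SD, n = 2). All 3 mutant libraries lay above both WT libraries with no overlap of bounds. By value alone 7.34% of tested genes lay above both WT libraries in all 3. KO was 1.61-fold above WT-21d (0.68 on the log2 scale) and 2.01-fold above WT-6w (1.003), the only 1 of the 8 genes past 2-fold higher in that second comparison, beside 3.3% of tested genes. KI lay 0.70 and 1.25 above WT-6w, a mean of 0.97 (limma, SE 0.354, adjusted p = 0.481), and 0.38 and 0.93 above WT-21d. The difference thus did not pass the test in KI, although its sign was the same in both libraries and against both controls. In this length range (2890 to 3855 nt) the median over 1973 genes was 0.07 for KO against WT-21d and -0.03 for KI against WT-6w.

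Itgb7, the beta7 chain (ENSMUSG00000001281, chromosome 15, 102215995 to 102231935), varied little. It had 176 scaled FPKM in WT-21d, 245 in WT-6w, 215 in KO, and 176 and 183 in KI, or 179 ± 5.09 (SD, n = 2). The bounds of WT-21d and of both KI libraries overlapped, while WT-6w and KO lay above them. KI lay at -0.45 from WT-6w (limma, SE 0.260, adjusted p = 0.568) and 0.03 above WT-21d. KO was 0.29 above WT-21d and -0.19 from WT-6w. In its length range (1953 to 2889 nt) the median over 1974 genes was 0.20 for KO against WT-21d and 0.18 between the WT libraries. For KI against WT-6w that median was -0.16. WT-6w and KO were the shallow libraries, and 23.6% of tested genes were higher in both of them than in all of the other 3, as Itgb7 was. A further 23.6% were lower in both, as Itga4 and S1pr1 were. The part of depth in these orders was not tested.

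Because alpha4 needs a beta partner, the chains were also set against each other within a library, where the scaling factor cancels. Itga4 had 0.589 times the FPKM of Itgb1 in WT-21d, 0.293 in WT-6w, 0.0554 in KO, and 0.276 and 0.344 in KI. The KO ratio was the lowest, and the highest value that its bounds allow, 0.0628, lay below the lowest of any other library, 0.253. The range of WT-6w overlapped that of each KI library, while the KI libraries did not overlap each other. Against Itgb7 the ratio was 0.409, 0.117, 0.0505, 0.250 and 0.439 in the same order, so KO was again lowest and WT-6w next. Itgb7 exceeded Itgb1 by 2.51 times in WT-6w and 1.44 times in WT-21d, and the ratio was 1.096 in KO and 1.105 and 0.785 in KI. The 3 mutant libraries had the lower beta7 to beta1 ratios, and KI replicate 2 alone had more Itgb1 than Itgb7. A trend with transcript length does not cancel in these ratios. For KO against WT-21d the median difference was -0.40 in the length group of Itga4, 0.07 in that of Itgb1 and 0.20 in that of Itgb7. Between the WT libraries it was -0.32, 0.04 and 0.18 in the same order. The part of length in the ratios was not tested. All of them compare RNA and not the dimers at the cell surface.

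**Figure D2:**
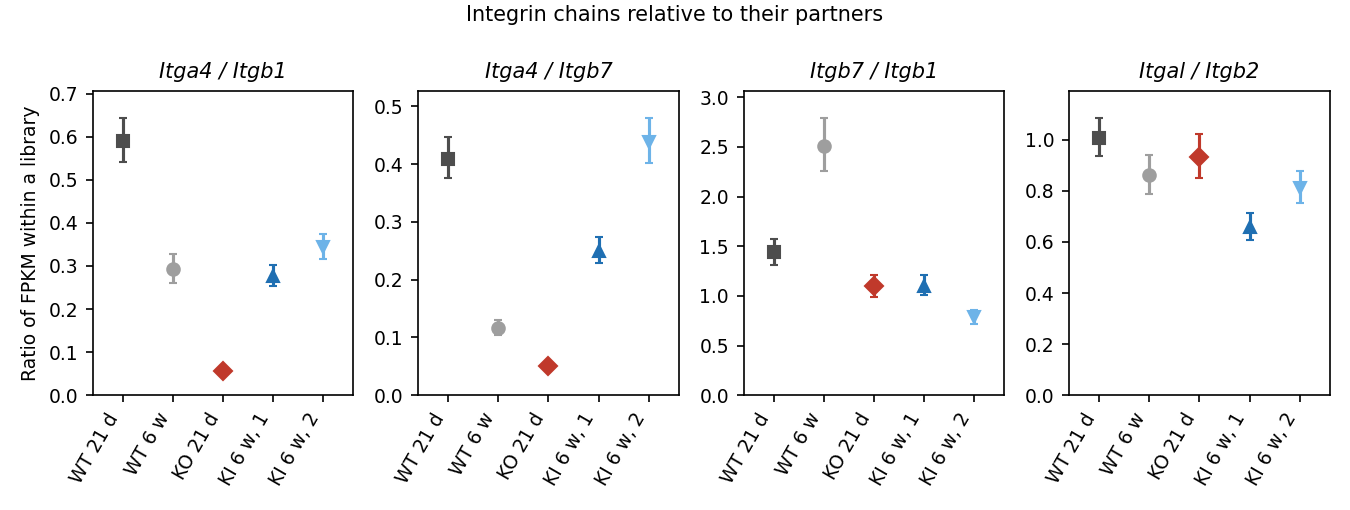
Ratio of FPKM between integrin chains within each library, 1 panel per pair with its own axis from 0, with bars for the range that the deposited bounds of both genes allow. The KO library has the lowest Itga4 level relative to both beta chains (0.0554 and 0.0505). The Itgal to Itgb2 ratio lies between 0.658 in KI replicate 1 and 1.01 in WT-21d.

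The LFA-1 chains ranged less over the libraries than Itga4 and Itgb1. Itgal (log2 range 0.65) ranged more than Itgb7 (0.48), and Itgb2 (0.44) less. Itgal (ENSMUSG00000030830, chromosome 7, 127296260 to 127335137) had 142 scaled FPKM in WT-21d, 113 in WT-6w, 97.0 in KO, and 90.3 and 96.5 in KI, or 93.4 ± 4.37 (SD, n = 2). All 3 mutant libraries lay below both WT libraries with no overlap of bounds. By value alone 7.02% of tested genes lay below both WT libraries in all 3. KI lay at -0.27 from WT-6w (limma, SE 0.226, adjusted p = 0.665) and -0.60 from WT-21d. KO lay at -0.55 from WT-21d and -0.22 from WT-6w, and 34.5% of tested genes lay below both WT libraries in KO.

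Itgb2 (ENSMUSG00000000290, chromosome 10, 77530252 to 77565708), the beta chain shared by all leukocyte beta2 integrins, had 141 in WT-21d, 131 in WT-6w, 104 in KO, and 137 and 119 in KI, or 128 ± 13.0 (SD, n = 2). The KO library was lowest, and the KI libraries lay at 0.07 and -0.14 from WT-6w, on either side of it (limma mean -0.04, SE 0.252, adjusted p = 0.968). KO lay at -0.44 from WT-21d and -0.33 from WT-6w. The Itgal to Itgb2 ratio was 1.01 and 0.861 in WT-21d and WT-6w, 0.932 in KO, and 0.658 and 0.812 in KI. The lowest of these, in KI replicate 1, did not overlap any other library by its bounds.

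S1pr1, the egress receptor (ENSMUSG00000045092, chromosome 3, 115710433 to 115715055), had 109 scaled FPKM in WT-21d and 70.2 in WT-6w, 54.8 in KO, and 109.9 and 126 in KI, or 118 ± 11.3 (SD, n = 2). KO was lowest, the KI libraries were level with or above WT-21d, and WT-6w lay between. In KI both libraries were above WT-6w, by 0.64 and 0.83, a mean of 0.74 (limma, SE 0.240, adjusted p = 0.460). S1pr1 was the only 1 of the 8 genes with an unadjusted p under 0.05 in limma, beside 5.75% of tested genes on the higher side and 4.97% on the lower. Against WT-21d the KI libraries lay at 0.02 and 0.21, and the bounds of WT-21d and KI replicate 1 overlapped. Both KI libraries were above both WT libraries for S1pr1 and Itgb1, and both were below for Itgal, where 16.2% and 16.8% of tested genes lay above and below. KO lay at -0.97 from WT-21d, a 1.98-fold lower level, and -0.35 from WT-6w.

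Klf2, the transcription factor that maintains egress and quiescence programmes (ENSMUSG00000055148, chromosome 8, 72319033 to 72321656), did not follow S1pr1. It had 213 scaled FPKM in WT-21d, 167 in WT-6w, 174 in KO, and 179 and 134 in KI, or 156 ± 32.3 (SD, n = 2). WT-21d was highest and KI replicate 2, the library with the most S1pr1, was lowest. The bounds of WT-6w and KO overlapped, as did those of KO and KI replicate 1. KI lay at 0.11 and -0.32 from WT-6w, a mean of -0.11 (limma, SE 0.314, adjusted p = 0.909), less than the 0.42 between its libraries. KO lay at -0.29 from WT-21d and 0.06 above WT-6w. The sign for Klf2 in KO thus differed between the controls, of which WT-21d matches KO in age. In its length range (201 to 1952 nt) the median over 1976 genes was 0.32 for KO against WT-21d and 0.05 against WT-6w. For KI against WT-6w that median was -0.31.

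Cd44 (ENSMUSG00000005087, chromosome 2, 102811141 to 102901665) had the lowest level of the 8 genes in every library but KO, where Itga4 was lower. It had 41.3 scaled FPKM in WT-21d, 27.8 in WT-6w, 22.8 in KO, and 26.9 and 34.9 in KI, or 30.9 ± 5.61 (SD, n = 2). WT-21d was highest, KO was lowest, and the bounds of KI replicate 1 and WT-6w overlapped. KO lay at -0.83 from WT-21d, a 1.81-fold lower level, and -0.28 from WT-6w. The KI libraries lay at -0.05 and 0.32 from WT-6w (limma mean 0.14, SE 0.274, adjusted p = 0.860) and at -0.60 and -0.24 from WT-21d. The files sum Cd44 over its isoforms, so a change in variant exons would not be seen.

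Considered together, limma called 0 of the 8 genes in KI against WT-6w, with 1 at an unadjusted p under 0.05, and it called 1 gene of 11296 in all. That gene was on the lower side, 0.00885% of those tested. Only the KI pair informs the spread in that fit, with 1 residual degree of freedom. By size, 0 of 8 differed over 2-fold from WT-6w in each KI library, where 3.01% of tested genes were higher and 2.8% lower, and 0 of 8 against WT-21d, where 0.398% were higher and 0.788% lower. The median difference of the 8 was 0.05 in KI against WT-6w and -0.21 against WT-21d, beside -0.00 and 0.00 over all tested genes. For KO the median was -0.49 against WT-21d, with 6 of 8 lower, and -0.25 against WT-6w, with 6 of 8 lower, beside 0.02 and -0.01 over all tested genes. Of all 11296 tested genes, 5491 and 5782 were lower in KO. KO lay below both WT libraries for 5 of the 8 (Cd44, Itga4, Itgal, Itgb2 and S1pr1) and above both for Itgb1, beside 34.5% of tested genes on each side. Between the WT libraries the median was -0.34, with 7 of 8 lower at 6 weeks, beside 0.01 over all, where 5492 of 11296 genes were lower. These comparisons share their WT libraries, so they are not independent of each other. By transcript length, the median for KO against WT-21d ran from 0.32 in the shortest group to -0.40 in the longest. The part of length in the medians of the 8 was not tested. FPKM as deposited, without the factors, shift the median of all tested genes by 0.34 both in KO against WT-21d and between the WT libraries, and by -0.26 in KI against WT-6w. Relative to that median each of the 8 genes kept its sign in all 3 comparisons. That is no separate check, because subtracting the median nearly restores the scaled values. Without the subtraction the sign turned for Cd44 in KI and Klf2 in KO. Between the WT libraries it turned for Klf2, Itgb1, Itgal and Itgb2.

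**Figure D3:**
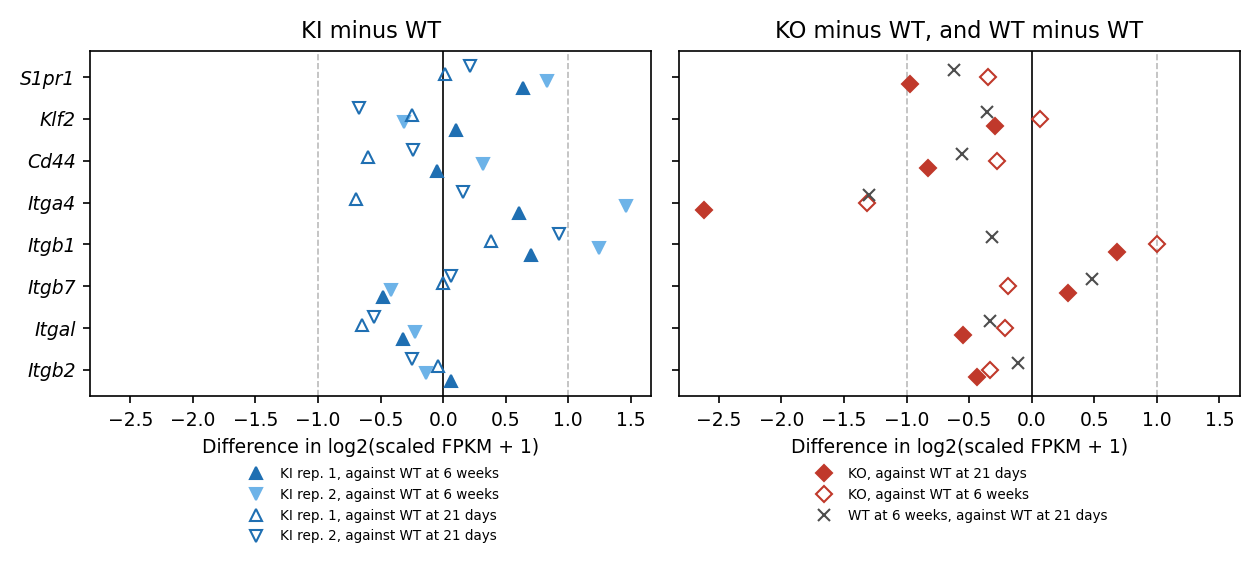
Differences in log2(scaled FPKM + 1) of the 8 genes, in the left panel for each KI library against each WT library and in the right panel for KO against each WT library and for WT-6w against WT-21d. Dashed lines mark 2-fold on this scale. Itga4 in KO lies at -2.62 and -1.32, and Itgb1 is above 0 for all mutant libraries against either control.

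The genes whose order over the 5 libraries was most like each of the 3 most variable members were sought among tested protein-coding genes, by the root mean square difference of their centred log2 values. For Itga4 these were Ikzf2, the Treg transcription factor Helios, at a distance of 0.21, and Glcci1 at 0.25. Ikzf2 had 68.0 scaled FPKM in WT-21d, 36.3 in WT-6w, 15.4 in KO, and 62.6 and 104 in KI. For Itgb1 they were Ccr2, a chemokine receptor of effector cells and monocytes, at 0.06, and Spag5, a mitotic spindle protein, at 0.10. Ccr2 had 12.9, 10.5, 21.6, 16.6 and 28.3 in the same order. For S1pr1 they were Tnks2, a tankyrase, and Pikfyve, a lipid kinase, each at 0.03. The nearest of the other members was further away in each case, S1pr1 at 0.59 from Itga4, Itgb7 at 0.56 from Itgb1 and Cd44 at 0.30 from S1pr1. With only 5 libraries and this many genes, close matches are to be found for any gene.

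Of 22 listed genes, which are the other integrin chains and the integrin-like Itgbl1, 6 passed the filter on low values, and 16 had a mean scaled FPKM under 1. By size 4 of the 6 (Itgae, Itgav, Itga7 and Itgb8) exceeded WT-6w over 2-fold in each KI library, beside 3.01% of all tested genes, 0 were called by limma, and their median was 1.25. Itgae, the alphaE chain that binds E-cadherin with beta7, had 24.9 scaled FPKM in WT-6w and 30.1 in WT-21d, 46.3 in KO, and 102 and 52.8 in KI. Itga7, a laminin receptor chain, was low, with 1.36 and 0.914 in WT-6w and WT-21d, 4.22 in KO, and 5.19 and 4.22 in KI. It was the 1 listed integrin chain past 2-fold higher in KO against both WT libraries, where 2.17% of tested genes were, and in both KI libraries against both, where 0.283% were. Itgav and Itgb8, which form a dimer that activates latent TGF-beta, were low in WT-6w (6.82 and 1.38) and KO (6.21 and 0.756). They had 20.1 and 6.76 in WT-21d, 18.4 and 6.31 in KI replicate 1, and 16.6 and 10.9 in KI replicate 2. The difference of KI from WT-6w for these 2 chains was thus absent against WT-21d, a control not matched to KI in age. There the means were -0.19 for Itgav and 0.27 for Itgb8.

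Adaptors switch integrins on from inside the cell. Of 31 listed, 30 were found and 25 tested. In both KI libraries 0 were past 2-fold from WT-6w in either direction, beside 3.01% of all tested genes higher and 2.8% lower. In KO against both WT libraries 0 were past 2-fold, beside 2.17% higher and 0.938% lower. The medians of the adaptors were 0.10 in KI against WT-6w and -0.15 in KO against WT-21d. Talin (Tln1), which links beta tails to actin, had 80.6 and 79.5 scaled FPKM in WT-21d and WT-6w, 74.6 in KO, and 68.5 and 80.3 in KI. Kindlin-3 (Fermt3) had 54.1 and 71.1, 79.5, and 57.7 and 56.8 in the same order. Rapgef6, an exchange factor for Rap1 named here after its values were seen, was the 1 adaptor past 2-fold lower in KO against WT-21d, beside 8.14% of all tested genes, with 67.1 there, 24.2 in KO and 27.7 in WT-6w. In KI it had 77.9 and 56.3, at 1.46 and 0.9998 from WT-6w (limma adjusted p = 0.446).

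Among 14 tested genes of egress and retention, 0 were past 2-fold from WT-6w in both KI libraries, beside 3.01% of all tested genes higher and 2.8% lower. In KO, 2 were past 2-fold lower against WT-21d, Cd69 and Ccr7, beside 8.14% of all tested genes. Both, and S1pr4, are named after their values were seen. Cd69, which binds S1PR1 and holds cells in the node, had 198 in WT-21d, 70.1 in WT-6w, 68.7 in KO, and 195 and 86.2 in KI. Ccr7, the receptor that guides entry to lymph nodes, had 171, 81.8, 54.2, 177 and 57.4 in the same order. The KI libraries thus lay far apart for both genes, replicate 1 with WT-21d and replicate 2 nearer to WT-6w. S1pr4, another sphingosine 1-phosphate receptor of lymphocytes, went against S1pr1, with 31.7 and 53.4 in WT-21d and WT-6w, 53.9 in KO, and 35.5 and 40.1 in KI. It was thus among the 23.6% of tested genes higher in WT-6w and KO than in the other 3 libraries.

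Of the 13 tested KLF, FOXO and FOXP1 regulators and the kinases and MEF2 factors upstream of Klf2, 12 lay below WT-21d in KO and 11 below WT-6w. Of all 11296 tested genes, 5491 and 5782 did. Mapk7 lay at 0.61 from WT-21d, and Klf10 and Map2k5 at 0.14 and 0.26 from WT-6w, while Map2k5 against WT-21d and Klf13 against WT-6w were near 0. Of the 13, 8 were past 2-fold lower against WT-21d (Klf3, Klf4, Klf6, Foxo1, Foxo3, Foxp1, Mef2a and Mef2d), beside 8.14% of all tested genes, with a list median of -1.03. Against WT-6w the median was -0.53, and 0 were past 2-fold lower against both WT libraries, beside 0.938% of all tested genes. Foxo1, which drives Klf2 and homing receptor genes in resting T cells, had 81.7 scaled FPKM in WT-21d, 65.3 in WT-6w, 34.3 in KO, and 54.6 and 56.6 in KI. Foxo1 in KO thus lay at -1.23 and -0.91 from WT-21d and WT-6w, where Klf2 lay at -0.29 and 0.06. Klf2 is in the shortest group by transcript length, where the medians were 0.32 and 0.05, and the part of length here was not tested. In KI, 0 of the 13 were past 2-fold from WT-6w in both libraries, beside 3.01% of all tested genes higher and 2.8% lower. Klf4 was 53.1 in replicate 1 and 5.05 in replicate 2, with 29.2 and 15.2 in WT.

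**Figure D4:**
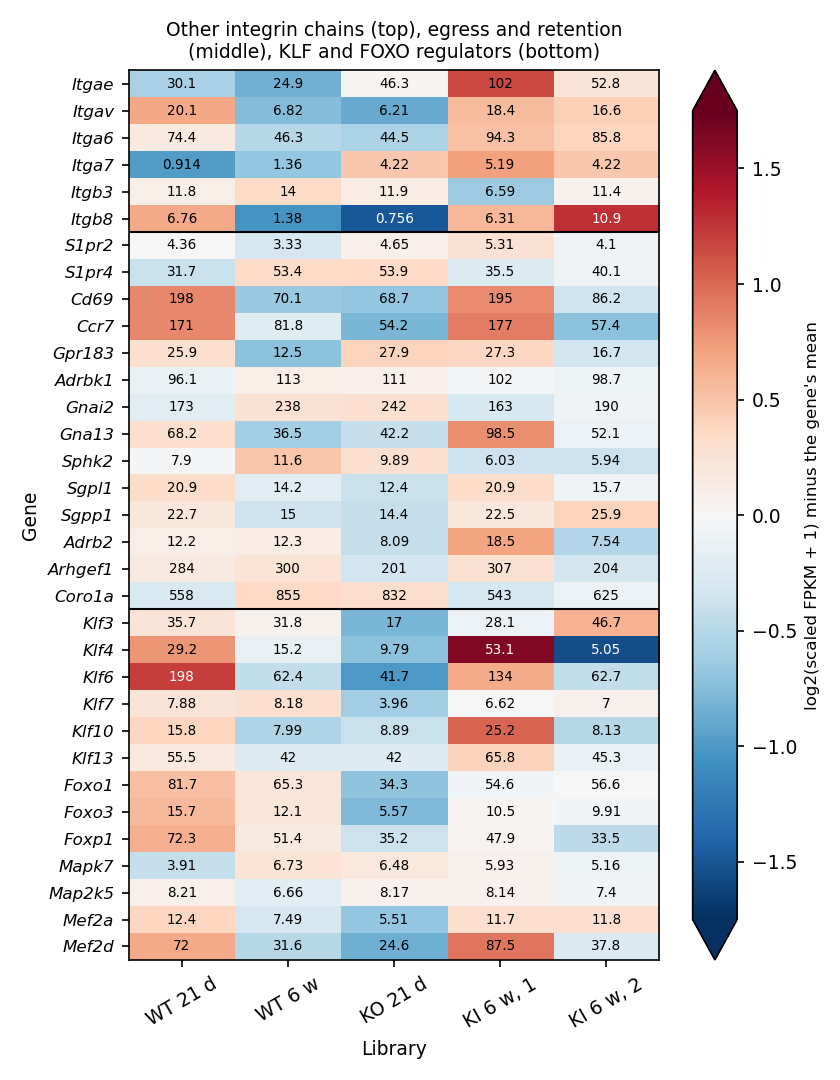
Tested genes of 3 lists in the 5 libraries, with the scaled FPKM printed in each cell and the colour giving log2(scaled FPKM + 1) minus the gene's mean over the libraries. The KO column is lowest for 8 of the 13 KLF and FOXO regulators, a count for which no share over all tested genes was computed. WT-6w and KO share low Itgav, Itgb8, Cd69 and Mef2d, and 23.6% of all tested genes were lower in both than in the other 3 libraries.

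Markers of other cells differed between the libraries, and several of them express beta2 and alpha4 integrins. The 9 myeloid markers found summed to 97.9 scaled FPKM in WT-6w, 8.83 in WT-21d, 17.9 in KO, and 32.7 and 4.57 in KI, and the 6 of plasmacytoid dendritic cells to 72.4, 3.57, 10.2, 1.52 and 0.810. The 6 B cell markers summed to 23.6 and 17.7 in WT-6w and WT-21d, 8.80 in KO, and 4.25 and 3.07 in KI. The 6 NK cell markers summed to 81.8 in KO and 22.3 to 37.6 elsewhere, mostly from Nkg7 at 73.8 in KO. CD8 T cell markers (Cd8a and Cd8b1) summed to 5.79 to 13.2. Of the 4 erythroid and platelet markers found, 4 were at 0 in KO and 3 in WT-6w, where Hba-a1 had 15.1. Siglech, Klk1 and Cox6a2 were at 0 in KI replicate 1. The part of these cells in the levels of the 8 genes was not tested. Itgam, Itgax and Itgad, alpha partners of beta2 in myeloid cells, were at 1.04 to 2.40 in WT-6w and at most 0.585 in the other libraries, low beside Itgal.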

How the data were processed

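For each library the authors deposited FPKM per gene, with bounds on either side and a status, per the file headers. CASAVA, HISAT2 2.1.0, Cufflinks 2.2.1 and GRCm38 are named in the submitters' processing notes, without order or settings. Annotation release, strand and read type: not given in the sources used here. Depth was estimated from the bounds of single-transcript genes of at least 2000 nt and FPKM of at least 5 (GENCODE M21), so it is approximate. Median-of-ratios factors, computed on 9874 genes whose FPKM reached 1 in each library, scaled the values. Differences are of log2(scaled FPKM + 1), a scale that shrinks the differences of weakly expressed genes. A mean of 1 or above after scaling admitted a gene to the tests. KI was set against WT-6w with limma 3.58.1 in R 4.3.3 (trended variance, two-sided) and Benjamini-Hochberg adjustment over all 11296 genes at 0.05. The lone WT library is taken to vary like the KI pair. The fit was tested on simulated data, with independent noise of the same size in each library. That noise was not set from the spread of the KI pair, whose median absolute log2 difference over all tested genes was 0.30. Differences between libraries in depth or cell mixture were not simulated. The other comparisons have 1 library a side and were counted past 2-fold. All 8 genes are named, and from 6 hand-written gene lists those past 2-fold from WT-6w in each KI library or in KO from each WT library. Other listed genes are named as examples, chosen after their values were seen. The 2 nearest patterns are named for the 3 members of widest range. The listed genes Fyb2, Grk2, Plpp3, Adgre1, Hbb-bs and Hbb-bt were not matched by symbol. Members and lists were chosen with earlier results of these data known. Alternatives were the scaling, pseudocount, filter, control, gene set, trend and each KI library left out.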

Additional observations from a re-analysis of the deposited data

How the results depend on the processing

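Over 88 values of the 8 genes in KI against WT-6w, 80 kept their sign and 8 turned. Some settings leave these values unchanged, so no sign could turn there. They are no filter, a mean of at least 5, protein-coding genes only and limma without trend. With WT-21d as control, Cd44 lay at -0.42, Itga4 at -0.27 and Itgb7 at 0.031. Cd44 lay at -0.14 with both WT libraries as control and at -0.15 with FPKM as deposited, where the median of all tested genes was -0.26. Without KI replicate 2, Klf2 lay at 0.11, Cd44 at -0.05 and Itgb2 at 0.07. Limma called 0 of the 8 under the main and 9 other settings, and it could not be fitted with a KI library left out. Over all genes it called 1, against 50 with a pseudocount of 0.1 (5 higher, 45 lower), 25 at a mean of at least 5, 15 over protein-coding genes, and 0 with the upper-quartile factor, with no filter, against WT-21d and without trend. Leaving out KI replicate 1 put 2 of the 8 (Itga4 and Itgb1) past 2-fold against WT-6w, and leaving out replicate 2 put 0. All genes past 2-fold numbered 656, and 1260 to 1492 with 1 KI library left out, 1055 at a pseudocount of 0.1, 323 at a mean of at least 5, 384 over protein-coding genes, 134 against WT-21d and 71 against both.

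For KO against WT-21d, 1 of the 8 was past 2-fold, and 2 with FPKM as deposited or against WT-6w, where Itgb1 joined Itga4 (as deposited at 1.07, with the median of all tested genes at 0.35). All genes numbered 1613, against 934 at a mean of at least 5 and 632 against WT-6w. Between the WT libraries Itga4 lay at -0.92 with FPKM as deposited, which left 0 of the 8 past 2-fold, and all genes numbered 967, against 1498 at a pseudocount of 0.1 and 528 at a mean of at least 5. With FPKM as deposited the split past 2-fold (340 higher and 316 lower in KI, 693 and 920 in KO, 382 and 585 between the WT libraries) became, in KI, 211 higher and 545 lower and, in KO, 1526 and 483, and between the WT libraries 997 and 330. The cause of these moves was not tested, except that fewer genes were tested at higher minimums. No paired analysis was possible because the groups compared share fewer than 2 replicate numbers.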

Other observations

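Of 22 listed genes for integrin ligands and for the synthesis of selectin ligands, 12 were tested. Fut7, the fucosyltransferase that completes ligands of P- and E-selectin, had 1.74 scaled FPKM in WT-21d, 6.74 in WT-6w, 6.34 in KO, and 2.96 and 2.51 in KI. Selplg, the protein that carries those ligands, had 91.7, 131, 133, 81.4 and 89.5 in the same order. Both were thus higher in WT-6w and KO than in the other 3 libraries, as were 23.6% of all tested genes. St3gal6, a sialyltransferase of the same pathway, had 1.51 and 0.412 in KI against 4.33 in WT-6w. It was the 1 listed gene over 2-fold lower than WT-6w in each KI library, beside 2.8% of all tested genes. Its limma adjusted p = 0.460, and WT-21d had 1.74. Icam1, the ligand of LFA-1, had 34.0 and 21.6 in KI, 16.7 and 15.6 in WT-21d and WT-6w, and 19.9 in KO. Vcam1 had 7.51 in WT-6w, the library with the most myeloid marker RNA, and 1.22 to 3.58 elsewhere.

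Of 17 listed genes for CD44 and hyaluronan, 9 were tested. Of the linkers of CD44 to actin, Ezr was at 70.2 to 75.2 scaled FPKM in all 5 libraries and Msn was at 166 in KO, 202 and 258 in WT-6w and WT-21d, and 235 and 273 in KI. Srgn, a granule proteoglycan that can bind CD44, had 738 in KO and 463 to 585 elsewhere. Hmmr, a hyaluronan receptor and cell cycle gene, had 7.92 in KI replicate 2 and 1.71 in KI replicate 1.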
